A study of Mus musculus with 8 samples.

Results

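The collagen chain genes were described in the ascending aorta of Fbn1mgR/mgR and wild-type mice. Members were all genes whose symbol on the array consists of Col, a type number and a chain number and whose row carried that symbol alone. This gave 42 collagen genes of 30142 genes with such a row, each on 1 row. A further 2 rows, which join Col7a1 and Col6a4 with another symbol, were left out. Values were normalized log2 signals of 8 Affymetrix Clariom D mouse arrays, 4 for each genotype. Arrays mgR611, mgR612, mgR613 and mgR614 held total RNA of Fbn1mgR/mgR aorta, and WT675, WT676, WT742 and WT744 that of wild-type aorta. All samples came from males on a C57BL/6J background at 10 weeks of age, bred from Fbn1mgR/+ parents, and no treatment is named for them. Fibrillin-1, the product of Fbn1, builds the microfibrils of the extracellular matrix. The hypomorphic mgR allele lowers its output and serves as a model of severe Marfan syndrome. Nothing in the labels ties each array to its own animal, so the p-values cover the spread of these samples alone, and that spread may be technical. Fbn1 was not analysed here, and the genotype labels were not checked against its transcript.

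Collagens are secreted proteins of 3 chains wound into a triple helix. Fibrillar collagens (types I, II, III, V, XI, XXIV and XXVII) form the banded fibrils that carry tensile load, and types I and III make up most of the collagen of the aortic wall. FACIT collagens, such as types XII and XIV, attach to the surface of those fibrils. Network collagens form sheets, among them type IV of basement membranes and the short-chain type VIII of vessel walls, and beaded type VI forms filaments around cells. In arteries, smooth muscle cells of the media and fibroblasts of the adventitia are the main producers.

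In the Fbn1mgR/mgR aorta 2 collagen genes rose and none fell. Col12a1, a FACIT collagen of tissues under tension, rose 5.07-fold, and Col1a1, which encodes the alpha1 chain of type I collagen, rose 1.98-fold. Of the 42 genes, 37 lay above the signal filter (a mean log2 signal of 4.01, the median over all rows) and were tested, so 2 of 37 were higher at a limma adjusted p under 0.05 (Benjamini-Hochberg). Among all 32957 rows tested, 1.54% were called higher and 0.558% lower. The rises of Col12a1 and Col1a1 were called in the main setting and under each of 19 other settings, including each array left out, and no collagen gene was called lower under any of them.

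Other differences did not pass after adjustment. At an unadjusted limma p under 0.05, 8 of the 37 tested genes were higher (21.6%) and 1 was lower (2.70%), where 7.45% and 6.72% of all rows were. The 8 were Col12a1, Col1a1, Col4a2, Col8a1, Col5a2, Col15a1, Col1a2 and Col4a1, and the lower gene was Col4a6. In 6 of the 37 genes (16.2%) the values of the genotypes did not overlap, against 8.92% of all rows. In 4 of them the mutant values lay above the wild-type values (Col12a1, Col1a1, Col4a2 and Col5a1; 5.26% of all rows), and in 2 they lay below (Col4a3 and Col4a6; 3.65% of all rows). The difference was above 0 in 26 of 37 genes (70.3%), against 46.1% of all rows. The median difference was 0.06 over the 37 genes and -0.02 over all rows tested.

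**Figure D1:**
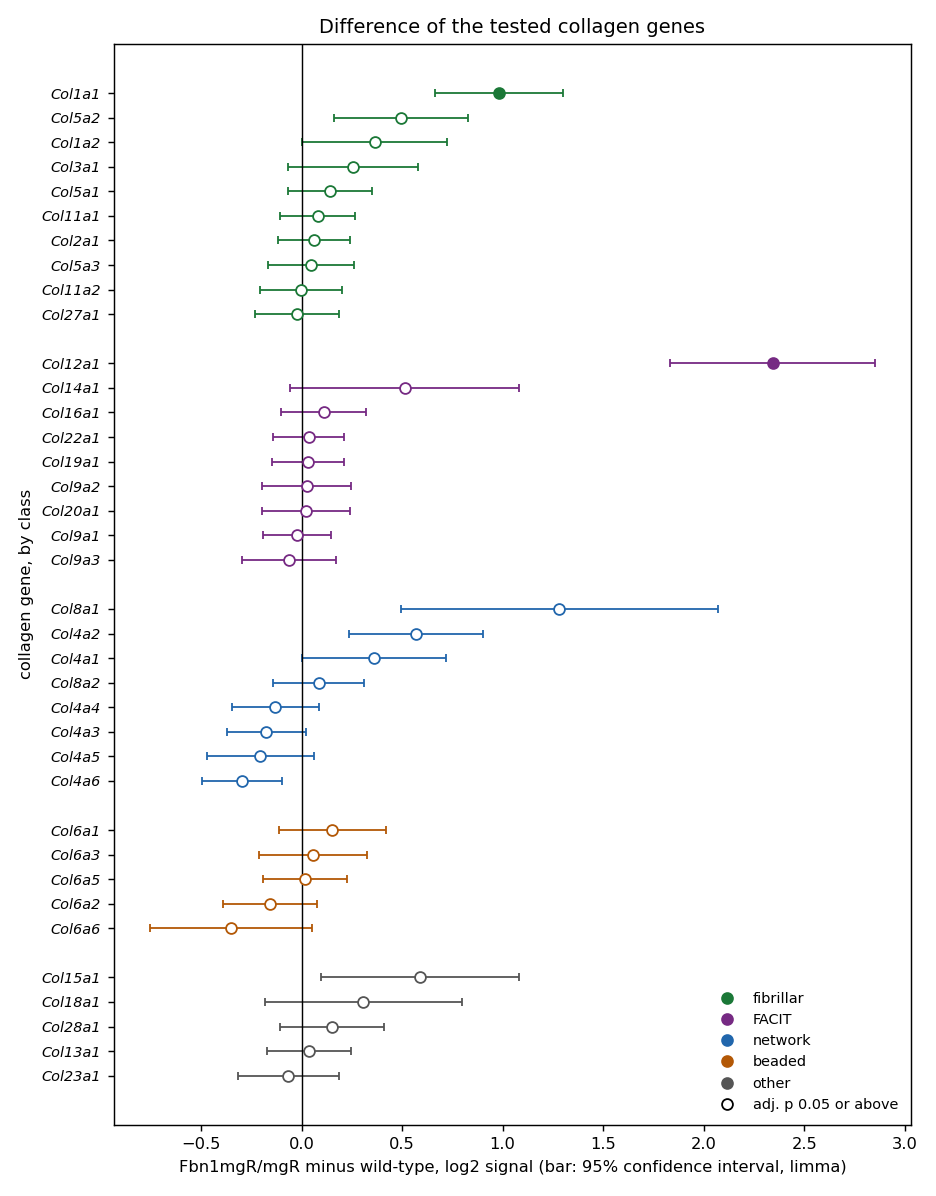
Difference between Fbn1mgR/mgR and wild-type arrays (x axis, log2 signal) for the 37 tested collagen genes (y axis), grouped by class. Points are differences of means of 4 arrays each, bars are 95% confidence intervals from limma, and filled points passed an adjusted p of 0.05. Col12a1 (2.34) and Col1a1 (0.98) carry filled points, and the interval of 25 genes lies between -0.5 and 0.5.

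The array bounded the size of change in signal for most other chains. The 95% confidence interval of the difference lay within 1 log2 unit of 0, a 2-fold change, for 32 of 37 genes, and within 0.5 for 25. The other 5 were Col12a1, Col1a1, Col8a1, Col14a1 and Col15a1. The array compresses differences near its dim end, so a bound on signal is not a bound on RNA for the dim genes. The 25 genes within 0.5 include 7 FACIT and 5 fibrillar genes with a mean signal under 5, to which this limit may also apply. Col4a4, Col6a5, Col8a2, Col13a1 and Col28a1, also within 0.5, have a mean signal under 5 too, and the same limit may apply to them. As a reference for dim signals, 1080 olfactory receptor genes had a median of 3.38 and a 95th percentile of 4.12. Of the 42 collagen genes, 8 had a mean at or below that percentile (Col9a1, Col19a1, Col11a1, Col24a1, Col10a1, Col25a1, Col17a1 and Col26a1), and the last 5 of these were not tested. The values of those 5 ranged from 3.63 to 4.10 over all arrays and both genotypes. Col19a1 was the only tested gene with a genotype mean at or below the filter, and its difference was 0.03 (adjusted p = 0.914). Signals of different genes depend on their probes, so a higher signal of 1 gene than of another is not read as more RNA.

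**Figure D2:**
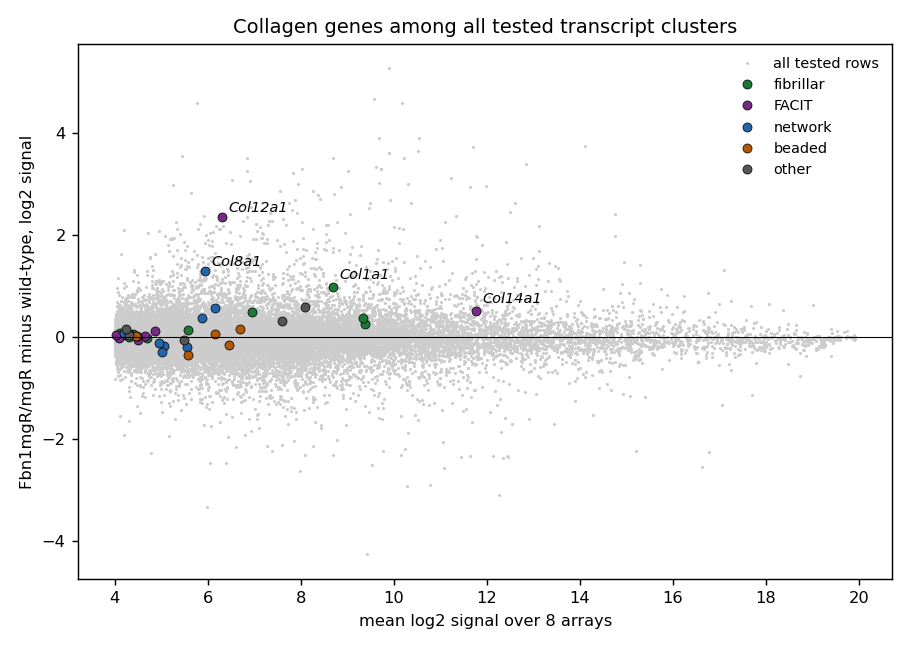
Mean log2 signal over 8 arrays (x axis) against the difference between Fbn1mgR/mgR and wild-type (y axis, log2) for all 32957 tested rows (grey) and the 37 tested collagen genes (coloured by class). Col12a1 at 2.34 and Col8a1 at 1.28 stand above the other collagen genes, most of which lie close to 0.

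Upstream sequences are given for chains with differences in both directions. RefSeq (build GRCm38.p6) gave upstream windows of 250 bases for 33 of the 42 genes, 36 windows in all. Col1a1, Col12a1, Col5a2, Col14a1, Col2a1, Col4a3, Col9a3, Col22a1 and Col26a1 were not among them. Printed are Col1a2 and Col8a1, which were higher at an unadjusted p under 0.05, and Col4a6, which was lower. They run 5′ to 3′ on the gene's strand and end at the base before the RefSeq gene, and capitals mark the motifs named below.
Col1a2 (chr6:4505368-4505617, plus strand): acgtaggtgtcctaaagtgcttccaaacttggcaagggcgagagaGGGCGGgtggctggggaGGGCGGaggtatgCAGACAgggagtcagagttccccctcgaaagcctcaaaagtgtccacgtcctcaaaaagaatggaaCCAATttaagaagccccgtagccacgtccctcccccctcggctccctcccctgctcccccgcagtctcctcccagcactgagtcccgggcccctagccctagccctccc
Col8a1 (chr16:57754738-57754987, minus strand): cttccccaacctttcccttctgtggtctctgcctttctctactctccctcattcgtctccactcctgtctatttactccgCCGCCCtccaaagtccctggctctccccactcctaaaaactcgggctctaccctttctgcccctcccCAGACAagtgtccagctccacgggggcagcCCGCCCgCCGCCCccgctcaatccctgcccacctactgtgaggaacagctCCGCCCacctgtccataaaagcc
Col4a6 (chrX:141474096-141474326, minus strand): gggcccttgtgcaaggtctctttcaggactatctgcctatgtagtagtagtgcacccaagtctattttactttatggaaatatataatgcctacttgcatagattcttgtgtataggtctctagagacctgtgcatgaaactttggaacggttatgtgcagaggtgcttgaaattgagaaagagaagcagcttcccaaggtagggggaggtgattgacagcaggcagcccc

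Motifs were searched on both strands by their letters: TATAAA for the TATA box, CCAAT for the box of that name, GGGCGG for the GC box, TGACTCA for the AP-1 element, and CAGACA for an element of the kind bound by SMAD proteins, called the CAGA element. None of these motifs holds another. The Col1a2 window held 2 GC boxes, 1 CAGA element and 1 CCAAT box. The Col8a1 window held 4 GC boxes and 1 CAGA element. The printed 231 bases of Col4a6 held no match, while its full window, which reaches into the RefSeq gene, held a GC box. GC boxes were present in 20 of the 36 collagen windows (55.6%) and in 32.7% of all 32851 windows of the same length. CAGA elements were present in 22.2% of collagen windows and 17.1% of all windows, CCAAT boxes in 30.6% and 33.8%, TATA boxes in 13.9% and 12.4%, and AP-1 elements in 2.78% and 4.46%. The median G and C content was 59.4% in the collagen windows and 52.4% in all windows. A match describes the letters of a window and does not show binding.

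Among fibrillar chains, Col1a1 alone passed the threshold. Col1a1 read 9.29, 9.32, 9.12 and 8.98 on mgR611, mgR612, mgR613 and mgR614, and 8.19, 8.01, 8.17 and 8.41 on WT675, WT676, WT742 and WT744. Every mutant array was above every wild-type array, with a gap of 0.57 between the lowest mutant and the highest wild-type value. The means were 9.18 ± 0.158 and 8.20 ± 0.164 (SD, n = 4 arrays each), a difference of 0.98 (SE 0.141, limma adjusted p = 0.00837). It ranked 162 by adjusted p among 17868 tested genes.

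Col1a2 encodes the other chain of type I collagen. It read 9.70, 9.79, 9.37 and 9.22 on the mutant arrays in the same order, and 9.11, 9.09, 9.08 and 9.34 on the wild-type arrays. The genotypes overlapped, since WT744 was above mgR614. The difference was 0.36 (SE 0.160, limma adjusted p = 0.344), with a 95% confidence interval from 0.0045 to 0.725.

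Col3a1, the homotrimeric type III collagen of distensible vessels, read 9.35, 9.75, 9.35 and 9.59 on the mutant and 9.29, 9.41, 9.10 and 9.22 on the wild-type arrays. The values overlapped, and the difference of 0.25 (limma adjusted p = 0.484) had a 95% confidence interval from -0.067 to 0.577. Type V chains join type I in the same fibrils and set their diameter. Col5a2 read 7.19, 6.92, 7.30 and 7.39 on the mutant and 6.61, 6.55, 6.97 and 6.69 on the wild-type arrays. Of the mutant arrays mgR612 alone lay within the wild-type range, and the difference was 0.49 (SE 0.148, limma adjusted p = 0.153). Col3a1 is its nearest protein-coding neighbour on 1 side. Col5a1 read 5.64, 5.60, 5.63 and 5.69 on the mutant and 5.46, 5.42, 5.59 and 5.53 on the wild-type arrays. A gap of 0.01 separated the genotypes, and the difference of 0.14 did not pass (limma adjusted p = 0.574).

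The cartilage chains Col2a1, Col11a1 and Col11a2 and the minor chains Col5a3 and Col27a1 read 3.99 to 4.82 over all 8 arrays. Their differences ran from -0.02 to 0.08, and none passed (limma adjusted p from 0.753 to 0.995). Of the 10 tested fibrillar genes, 8 had a difference above 0 and 2 below, and the class median was 0.11.

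**Figure D3:**
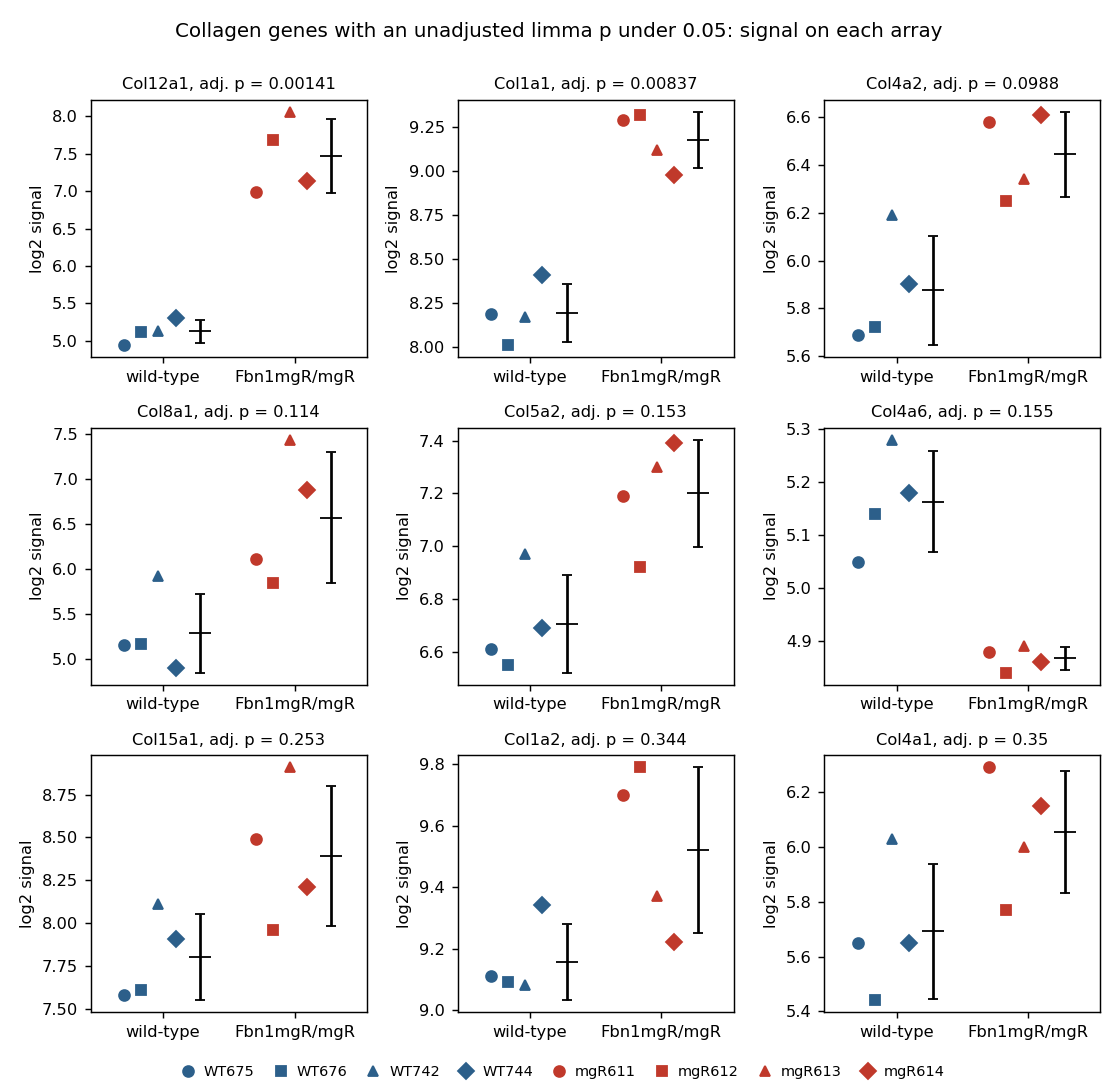
Log2 signal on each array (y axis) of the 9 collagen genes with an unadjusted limma p under 0.05, by genotype (x axis), 1 symbol per array, with the mean and SD of 4 arrays in black and the limma adjusted p above each panel. Mutant and wild-type points are separate in Col12a1, Col1a1, Col4a2 and Col4a6 and overlap in the other 5. The y axes do not start at 0 and differ between panels.

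Among FACIT collagens, Col12a1 differed and the others did not pass. Col12a1 read 6.99, 7.68, 8.06 and 7.14 on mgR611, mgR612, mgR613 and mgR614, and 4.94, 5.12, 5.13 and 5.31 on WT675, WT676, WT742 and WT744. The lowest mutant array lay 1.68 above the highest wild-type array, and the mutant arrays were more spread than the wild-type arrays. The means were 7.47 ± 0.494 and 5.12 ± 0.151 (SD, n = 4 arrays each), a difference of 2.34 (SE 0.226, 95% confidence interval 1.83 to 2.85, limma adjusted p = 0.00141). By size this was the 43rd largest rise among 17868 tested genes. Leaving out any 1 array kept the difference between 2.14 and 2.50.

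Col14a1 encodes the FACIT collagen most like type XII in its domains. Its mutant arrays read 11.57, 12.70, 12.13 and 11.66, and its wild-type arrays 11.40, 11.57, 11.20 and 11.84. The rank of the arrays differed from that of Col12a1, with mgR612 highest and mgR611 and mgR614 within the wild-type range. The difference was 0.51 (SE 0.254, limma adjusted p = 0.411), with a 95% confidence interval from -0.058 to 1.08, and it was 0.28 without mgR612. The remaining 7 FACIT genes (Col9a1, Col9a2, Col9a3, Col16a1, Col19a1, Col20a1 and Col22a1) read 3.92 to 5.05 over all arrays, and their differences ran from -0.06 to 0.11.

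In the network class no gene passed the threshold, and the differences of type IV chains had opposite signs. Col4a1 and Col4a2 encode the chains of the type IV collagen found in nearly all basement membranes, including those around smooth muscle cells. Col4a2 read 6.58, 6.25, 6.34 and 6.61 on the mutant and 5.69, 5.72, 6.19 and 5.90 on the wild-type arrays. The genotypes did not overlap, and mgR612 was within 0.06 of WT742. The difference was 0.57 (SE 0.148, limma adjusted p = 0.0988). Col4a1 read 6.29, 5.77, 6.00 and 6.15 on the mutant and 5.65, 5.44, 6.03 and 5.65 on the wild-type arrays. WT742 exceeded mgR612 and mgR613, and the difference was 0.36 (SE 0.160, limma adjusted p = 0.350).

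Col4a1 (minus strand) and Col4a2 (plus strand) are transcribed in opposite directions, and their RefSeq start sites lie in 1 short stretch. Each gene starts within the other, so their first bases overlap. The stretch is printed for the plus strand, in GRCm38.p6. Capitals mark the 22 bases from the Col4a2 start to the Col4a1 start, which belong to both genes.
Col4a1 and Col4a2 starts (chr8:11312801-11312830, plus strand): cggcAGTGCGCGGGCGGCGTCTCCAAgggg

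Col4a3 to Col4a6 encode type IV chains of more restricted tissues, with alpha5 and alpha6 chains also found around arterial smooth muscle. Col4a6 read 4.88, 4.84, 4.89 and 4.86 on the mutant and 5.05, 5.14, 5.28 and 5.18 on the wild-type arrays. Every mutant array was below every wild-type array, with a difference of -0.30 (SE 0.089, limma adjusted p = 0.155). Col4a3 read 4.93, 4.96, 4.93 and 5.03 on the mutant and 5.20, 5.19, 5.04 and 5.12 on the wild-type arrays. Its mutant values also lay below its wild-type values, by as little as 0.01, and the difference was -0.17 (limma adjusted p = 0.417). Col4a5, the neighbour of Col4a6 with 1343 bases between their start sites, differed by -0.21 (limma adjusted p = 0.498) with overlapping values. Col4a4, the neighbour of Col4a3, differed by -0.13 (limma adjusted p = 0.625), also with overlap. All 4 of these differences were below 0 and those of Col4a1 and Col4a2 above 0.

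Of the short-chain network collagens, Col8a1, a chain of type VIII collagen made by vascular smooth muscle and endothelial cells, had the second largest difference of the 37 genes. It read 6.11, 5.85, 7.44 and 6.88 on the mutant and 5.16, 5.17, 5.92 and 4.90 on the wild-type arrays. WT742 was above mgR612, and mgR613 was the highest of the mutant arrays. The difference was 1.28 (SE 0.350, 95% confidence interval 0.496 to 2.07, limma adjusted p = 0.114), or 2.43-fold, with a spread too wide to pass. It kept between 0.99 and 1.52 when any 1 array was left out, and did not pass in any of these fits. The partner chain Col8a2 read 4.04 to 4.40 over all arrays and differed by 0.08 (limma adjusted p = 0.794). Col10a1, of hypertrophic cartilage, was at dim signals in both genotypes (means 3.90 and 3.91).

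None of the 5 beaded type VI genes had an unadjusted p under 0.05. Col6a1 read 6.62, 6.73, 6.80 and 6.92 on the mutant and 6.65, 6.51, 6.54 and 6.76 on the wild-type arrays, a difference of 0.15 (limma adjusted p = 0.648). With 1 array left out that difference ran from 0.10 without mgR614 to 0.20 without mgR611. It was 0.07 without both mgR614 and WT676. Col6a2 read 6.51, 6.37, 6.27 and 6.33 on the mutant and 6.56, 6.51, 6.50 and 6.54 on the wild-type arrays, a difference of -0.16 (limma adjusted p = 0.574). Both genes overlapped between genotypes, and they are neighbours in the genome. Col6a3, which completes the usual type VI trimer, differed by 0.06, with a 95% confidence interval from -0.212 to 0.327. Col6a5 and Col6a6 are alternatives to Col6a3 in the trimer. Col6a5 differed by 0.02, and Col6a6 by -0.35 (limma adjusted p = 0.432) with a 95% confidence interval from -0.753 to 0.0534.

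Outside these classes, the multiplexins Col15a1 and Col18a1 link basement membranes to the tissue around them. Col15a1 read 8.49, 7.96, 8.91 and 8.21 on the mutant and 7.58, 7.61, 8.11 and 7.91 on the wild-type arrays, a difference of 0.59 (SE 0.219, limma adjusted p = 0.253). WT742 was above mgR612, and the other 3 mutant arrays were above all wild-type arrays. Col18a1, the source of endostatin, read 8.25, 7.61, 7.71 and 7.45 on the mutant and 7.11, 7.24, 7.85 and 7.59 on the wild-type arrays. Its values overlapped, and the difference was 0.31 (limma adjusted p = 0.609). With 1 array left out it ran from 0.14 without mgR611 to 0.44 without WT742, and was 0.20 without WT675. It was 0.19 with the fibroblast marker mean as a covariate. The transmembrane collagens Col13a1 and Col23a1 differed by 0.04 and -0.06, and Col28a1 by 0.15, with limma adjusted p from 0.642 to 0.917.

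**Figure D4:**
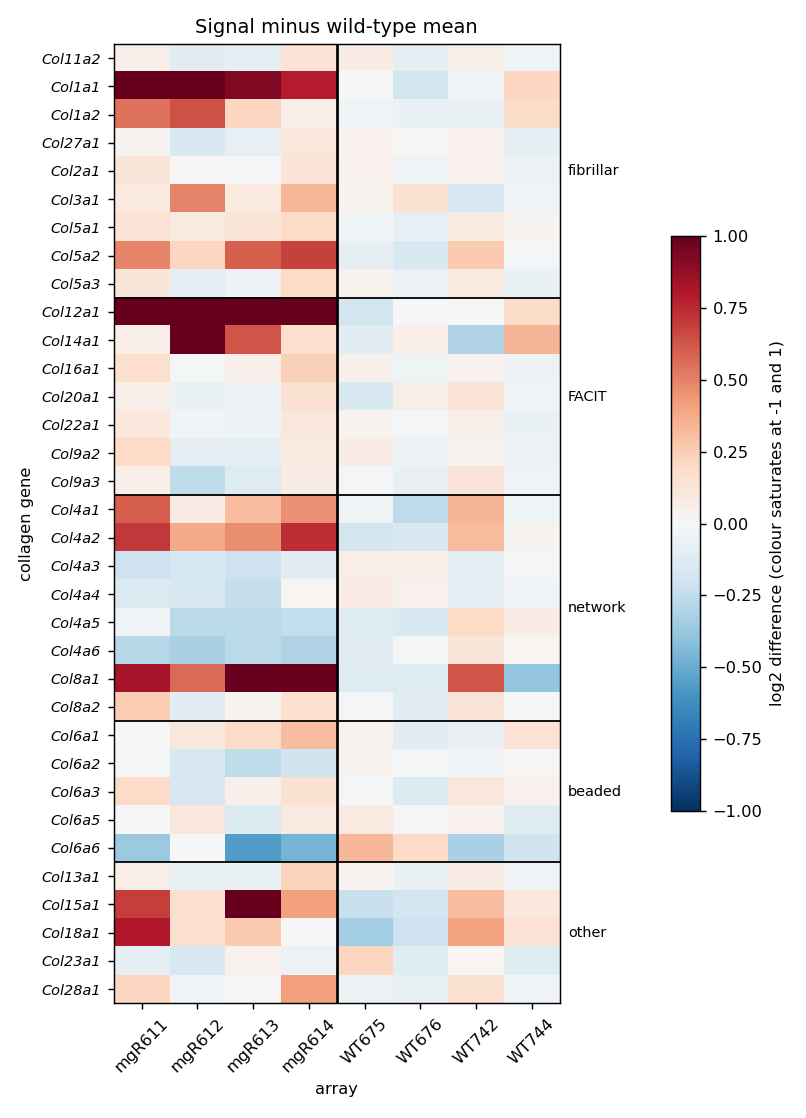
Log2 signal minus the wild-type mean (colour, saturated at -1 and 1) for the 34 collagen genes above the dim reference (rows, by class) on each of 8 arrays (columns, mutant left of the line). Col1a1 and Col12a1 are red on all 4 mutant arrays. WT742 is red in Col4a1, Col4a2, Col8a1, Col15a1 and Col18a1.

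Arrays of a genotype differed from each other across chains. Over the 34 genes above the dim reference, mgR612 was the lowest mutant array in 20 and mgR614 the highest in 16. Genes where mgR612 was lowest include Col5a3, Col11a2, Col8a2, Col13a1 and Col28a1, close to the dim reference, but also Col15a1 and Col8a1. In 6 genes mgR612 was the highest mutant array, among them Col14a1 (12.70), Col1a2 (9.79), Col3a1 (9.75) and Col1a1 (9.32). Among the wild-type arrays WT742 was the highest in 19 and WT676 the lowest in 13. The median deviation from the genotype mean was -0.09 for mgR612 and 0.08 for mgR614.

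Chains that assemble into 1 molecule were compared within arrays. For each pair of chains, the log2 difference between both rows on an array was taken. The shift of that difference between genotypes was tested with an exact two-sided permutation test over 70 labellings, whose smallest p is 0.0286. Of 11 pairs, 3 reached that smallest p, and none passed after Benjamini-Hochberg adjustment over the 11 pairs. With that smallest p, a pair that shifted alone could not pass this adjustment, whatever the size of its shift. The lack of calls is therefore not read as a lack of shifts.

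Col1a1 minus Col1a2 was -0.41, -0.47, -0.25 and -0.24 on the mutant and -0.92, -1.08, -0.91 and -0.93 on the wild-type arrays. The genotypes did not overlap, and Col1a1 differed by 0.62 more than Col1a2 (exact permutation p = 0.0286, adjusted p = 0.105). Col8a1 differed by 1.20 more than Col8a2 (exact permutation p = 0.0286, adjusted p = 0.105), where Col8a2 was near the dim reference. Col4a1 differed by 0.21 less than Col4a2, with a shift of -0.21 (exact permutation p = 0.0286, adjusted p = 0.105). Its genotypes were barely apart, with -0.29 on mgR611 and -0.28 on WT676. The shifts of Col5a1 against Col5a2 (-0.35) and of Col6a1 against Col6a2 (0.31) each had an exact permutation p = 0.0571 (adjusted p = 0.126). The remaining 6 pairs shifted by -0.05 to 0.10, with exact permutation p from 0.0857 to 0.886.

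**Figure D5:**
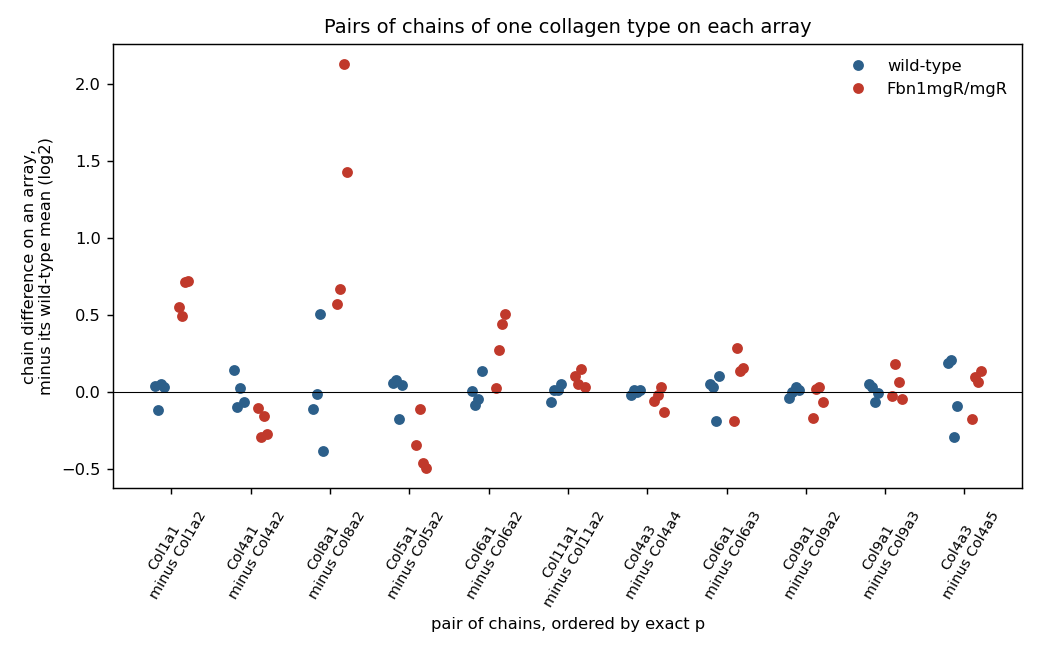
Log2 difference between 2 chains on each array, minus the wild-type mean of that difference (y axis), for 11 pairs of chains ordered by exact p (x axis), 1 point per array. Wild-type and mutant points are separate for Col1a1 minus Col1a2, Col4a1 minus Col4a2 and Col8a1 minus Col8a2.

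Genes that act on collagen were counted from lists. Of 67 genes listed, 56 were tested, of which 5 rose and 1 fell by limma, and by the unadjusted p 18 were higher and 4 lower. Over all rows 1.54% were called higher and 0.558% lower, and 7.45% and 6.72% by the unadjusted p, which is the background for each list below. None of 16 genes of hydroxylation, glycosylation and folding passed (by the unadjusted p 5 were higher and 0 lower), with a list median of 0.23 against -0.02 over all rows. They include the prolyl hydroxylase subunits P4ha3 (0.44, limma adjusted p = 0.0656) and P4hb (0.32, limma adjusted p = 0.271) and the prolyl 3-hydroxylase P3h2 (0.86, limma adjusted p = 0.249). The mean signal of P4ha3 (4.10) was below the dim reference. Its wild-type mean of 3.88 lay under the filter, so P4ha3 entered the test only through its mutant mean of 4.32. Neither its difference nor its call without mgR612 (limma adjusted p = 0.0329) is read as support. The counts of 5 and 18 genes higher by the unadjusted p include P4ha3. None of 5 genes of procollagen processing passed (by the unadjusted p 2 were higher and 0 lower, median 0.24). Among them were the procollagen N-proteinase Adamts3 (0.49), the enhancer Pcolce (0.36) and the protease Tll1 (-0.33), with limma adjusted p from 0.0900 to 0.548. None of 4 lysyl oxidase genes passed (by the unadjusted p 2 were higher and 0 lower, median 0.31), with Lox at 1.14 (limma adjusted p = 0.0789), Loxl3 at 0.34 and Loxl1 at 0.28. Lox passed without mgR612 (1.37, limma adjusted p = 0.0316), which at 7.66 lay below WT742 at 7.81. It did not pass when any other array was left out (limma adjusted p from 0.0518 to 0.198). Nor did it pass with no filter on signal (limma adjusted p = 0.148).

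Changes past the threshold lay in 3 other lists. Of 16 fibril regulators, Thbs1 (2.45, limma adjusted p = 0.00522), Fn1 (1.98, limma adjusted p = 0.00701) and Comp (0.88, limma adjusted p = 0.0397) rose, and the small proteoglycan Omd fell by 2.33 (limma adjusted p = 0.0103). The small proteoglycans Ogn (-1.14, limma adjusted p = 0.0593) and Prelp (-1.12, limma adjusted p = 0.0548) were also below wild-type on every mutant array but did not pass. Aspn (-0.68, limma adjusted p = 0.484) and Dcn (-0.16, limma adjusted p = 0.396) were lower with overlapping values and did not pass. Bgn differed by -0.0025, and Lum (0.12) and Fmod (0.22) were not lower. Thbs1 and Comp encode thrombospondins and Fn1 fibronectin, on which collagen fibrils assemble. Comp, Ogn, Prelp, Aspn, Dcn, Bgn, Lum and Fmod were chosen after their values were seen. Comp lost its call without any 1 of mgR611, mgR613, mgR614, WT675, WT676 and WT744 (limma adjusted p from 0.0846 to 0.121). It also lost its call with no filter on signal (limma adjusted p = 0.0775). Of 8 collagen receptor and uptake genes, Lair1, an inhibitory collagen receptor of leukocytes, rose by 1.30 (limma adjusted p = 0.00385), and Itga11 (0.21) and Itga2 (0.08) did not pass. Of 7 collagen degradation genes, the collagenase Mmp13 rose by 0.92 (limma adjusted p = 0.0185), while Mmp16 (-0.58, limma adjusted p = 0.0534) and Mmp14 (0.73, limma adjusted p = 0.137) did not pass. Mmp13 was not called without mgR614, WT675, WT742 or WT744 (limma adjusted p from 0.0510 to 0.0529). The wild-type values of Mmp13 (4.49, 4.68, 4.38 and 4.12) lay close to the dim reference of 4.12. The total of genes that rose was 3 without mgR614, WT675 or WT744, and that of genes that fell was 4 without mgR612 and 3 without mgR614, where Mmp16 was among those called without mgR612 (limma adjusted p = 0.0406). Medians were 0.14, -0.03 and 0.40 for the 3 lists. By the unadjusted p 6 fibril regulators were higher and 3 lower, 1 receptor and uptake gene was higher and 0 lower, and 2 degradation genes were higher and 1 lower.

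The RNA came from whole tissue, in which more cells of a type and more RNA per cell cannot be told apart. All 9 macrophage markers rose, with list means of 9.47 to 10.3 on the mutant and 7.50 to 7.97 on the wild-type arrays, and their part in the collagen differences was not tested. Of 8 fibroblast markers none passed in limma, and by the unadjusted p 0 were higher and 0 lower. The list means were 11.9 to 12.6 on the mutant and 12.1 to 12.6 on the wild-type arrays, and Pdgfra was not analysed here. With that mean as a covariate Col12a1 differed by 2.46 (limma adjusted p = 0.00169) and Col1a1 by 0.99 (limma adjusted p = 0.0142). Of 7 smooth muscle markers none passed in limma, and 1 was lower by the unadjusted p, with means of 13.2 to 14.3 and 13.9 to 14.5. Brown fat markers varied within both genotypes, from 7.32 to 10.7 on the mutant and from 6.50 to 10.9 on the wild-type arrays, highest on mgR614 and WT676. Without both arrays Col12a1 differed by 2.45 (limma adjusted p = 0.0175) and Col1a1 by 0.99 (limma adjusted p = 0.0417). No marker passed by limma among 7 endothelial (by the unadjusted p 0 were higher and 3 lower), 5 mesothelial (0 and 2), 6 striated muscle (0 and 1), 5 white fat (0 and 0) and 2 pericyte and nerve sheath (0 and 1) genes. Of 5 tested cartilage markers Acan, which encodes aggrecan, rose by 2.03 (limma adjusted p = 0.00439), and by the unadjusted p 1 was higher and 2 were lower. The lower genes were Chad (-0.69, limma adjusted p = 0.146), whose mutant mean lay under the filter, and Hapln1 (-0.29, limma adjusted p = 0.206). The list means were 4.62 to 4.71 on the mutant and 4.45 to 4.61 on the wild-type arrays, and 3 of its 7 genes were at or below the dim reference.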

How the data were processed

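The authors deposited normalized log2 signals per transcript cluster (row). Transcriptome Analysis Console, with no version, stands in the submitters' processing notes. Normalization, probe summary and build: not given in the sources used here. Array medians were 3.95 to 4.07 and the highest value was 19.93. Of 65956 rows, 30604 carried 1 symbol in the platform annotation, 2146 several and 33206 none, and gene IDs of 22818 matched RefSeq (GRCm38.p6), which updated 827 symbols. The brightest row stood for a gene.

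Differences are Fbn1mgR/mgR minus wild-type, by limma 3.58.1 in R 4.3.3 (lmFit, eBayes with an intensity trend over all rows), with Benjamini-Hochberg adjustment over the 32957 rows above the median of the mean signals. Every adjusted p of a gene is limma's. The median standard error was 0.151, and the number of arrays limits precision. On simulated data for this comparison (65956 rows fitted, 32957 tested) limma called 61% of the 100 rows given a change of 1 (log2) and 93% of the 100 given a change of 2. It called 9 unchanged rows among 163 calls.

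Values on every array are given for collagen genes past either p of 0.05 and for the 2 genes of highest signal in each class, and for Col5a1 and Col4a3, chosen after their values were seen. From each list of collagen partners up to 3 genes of smallest p are named. The members, classes, pairs and lists were chosen with earlier results of these data known. Lists and pairs were not tested as sets. Settings tried were eBayes without a trend or robust, array weights, other filters, quantile normalization, median centring, marker means as covariates and each array left out. Chosen after seeing the data were a prior from filtered rows only and a fit that left out mgR614 and WT676, where brown fat markers were highest. Python 3.11.15, pandas 2.3.3, scipy 1.17.1 and matplotlib 3.10.9 were used.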

Additional observations from a re-analysis of the deposited data

Results flagged for a closer look

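Among 84 groups of 4 arrays (42 collagen genes in both genotypes), 2 held an array far from the other 3, where chance gives about 1 in 20 groups. Col1a2 read 9.34 on WT744 against 9.08 to 9.11 on the other wild-type arrays. Without that array its difference was 0.43, and it did not pass (limma adjusted p = 0.389). Col4a5 read 5.63 on mgR611 against 5.39 to 5.42 on the other mutant arrays.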

How the results depend on the processing

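The number of collagen genes called higher was 2 and the number called lower was 0 in the main setting, in 11 other settings and with each of 8 arrays left out (2 to 2 higher and 0 to 0 lower). Over these settings the limma adjusted p ranged from 0.000819 to 0.0175 for Col12a1 and from 0.00404 to 0.0417 for Col1a1. None of the 14 other collagen genes described on every array changed direction or side of the threshold. Col4a3, Col4a6 and Col5a1 had no value when only rows above the upper quartile of signal were tested. Each collagen gene had 1 row, so averaging rows of a gene could not change a value and was not run. Chain pairs called after adjustment numbered 0 in the main setting and 0 with quantile normalization. In neither could a pair that shifted alone pass, so these counts do not measure stability. With an array left out the permutation test cannot pass, so only shifts were computed. The shift of Col4a3 against Col4a5 turned from 0.03 to -0.0050, -0.068 and -0.0017 without mgR614, WT742 and WT744 (-0.068 to 0.098 with any array left out), and that of Col9a1 against Col9a3 from 0.04 to -0.0067 without mgR612 (-0.0067 to 0.070). All lie within the spread between arrays, and the cause was not tested. Partner genes called higher numbered 5 (3 to 7 with an array left out) and called lower 1 (1 to 4 with an array left out, and 3 with only rows above the upper quartile, where fewer rows are tested). Dim signal limits what can be seen for the 8 genes at or below the olfactory receptor reference. No paired analysis was possible because the genotypes share no replicate number.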
